A study of Mus musculus with 30 samples.

Results

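The comparison described here is that of spermidine given during AOM-DSS with AOM-DSS alone, in colon outside tumors of mice lacking Smox, the gene for spermine oxidase. RNA of colon tissue was sequenced, and the libraries were chosen by their labels, those marked Smox, AOM, Spd and NT (non-tumor) against those marked Smox, AOM and NT. They make 6 of the 30 libraries of the series, 3 from Smox mice given AOM-DSS and spermidine and 3 from Smox mice given AOM-DSS without spermidine. All were male C57BL/6 mice of 8 to 12 weeks, all carried the Smox deletion, and all received 1 intraperitoneal dose of azoxymethane (AOM, a colon carcinogen) at 12.5 mg/kg and 3 courses of 4% dextran sulfate sodium (DSS, which injures the colon lining), each of 5 days, starting on days 5, 26 and 47. Spermidine was dissolved in the drinking water at 14 mM for 56 days, and the samples were from day 56. Replicate 1 of the spermidine group resembled tumor, so results are given with it (3 against 3 libraries) and without it (2 against 3). Neither the removed part of Smox nor the source of each piece along the colon is given in the labels. They mark these samples as colitis without tumor. Separate libraries stand for separate samples in the labels, which do not name the animals. The p-values of the main fits rest on a spread between samples shared over all 10 groups of the series, not on these 6 libraries alone. Values of other groups are given beside the 6 libraries. These are wild-type (WT) colon given AOM-DSS with or without spermidine, Smox colon untreated or given spermidine alone, and tumors of Smox mice given AOM-DSS without spermidine.

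Spermidine is a polyamine, a small positively charged molecule that cells make from ornithine by way of putrescine and convert onward to spermine. Spermine oxidase runs the last step backward, oxidizing spermine to spermidine with release of hydrogen peroxide and an aldehyde. Spermidine also donates the group that forms hypusine, an unusual amino acid of the translation factor eIF5A. In the AOM-DSS model, repeated mucosal injury after a mutagen gives inflammation, regeneration and Wnt-driven tumors, mostly in the distal colon.

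The 3 libraries with spermidine held 68035606, 51779747 and 56541126 estimated counts, and the 3 without it held 56547616, 56301726 and 50706102. Levels are CPM, counts scaled to a common library total, after TMM scaling, which corrects for library composition. CPM is not divided by transcript length, so levels are compared between libraries and not between genes. Mitochondrial genes took 2.91%, 5.62% and 3.45% of the counts with spermidine and 4.52%, 6.1% and 5.29% without. Colon epithelium was present in all 6, since the goblet cell mucin Muc2 stood at 1859, 3089.7 and 6671 CPM with spermidine and 4787, 3215 and 5512 CPM without. Smox itself had 63.1, 23.2 and 35.01 CPM with spermidine and 27.6, 26.1 and 35.8 CPM without. Replicate 1 with spermidine was the highest of the 6 and replicate 2 the lowest, so the groups overlapped. The model put Smox at 1.36-fold (log2 change 0.44, SE 0.24, edgeR adjusted p = 0.412) with all 6 libraries, and at a log2 change of -0.03 (edgeR adjusted p = 0.988) without replicate 1. Counts run over the whole gene (chromosome 2, 131491496 to 131525922, GRCm38) and the labels do not give the deleted part, so they do not check the deletion. WT colon given AOM-DSS averaged 49.4 ± 4.05 CPM with spermidine and 46.9 ± 4.61 CPM without (SD, n = 3 each).

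Replicate 1 with spermidine shared many high and low genes with tumors. Against both other spermidine libraries it was at least 4-fold higher for 340 genes and at least 4-fold lower for 53. Of those 340 genes, 64.1% were also at least 4-fold higher in the mean of the 3 Smox AOM tumors than in Smox AOM-DSS colon outside tumors, against 1.99% of all genes tested. Of the 53 low genes, 69.8% were at least 4-fold lower in those tumors, against 2.33% of all genes. Log2 values of CPM + 0.5 were used for this count. Replicate 1 was singled out because earlier results of these data showed it to resemble tumor, so these shares describe it and test nothing. Replicate 2 had 29 high genes and replicate 3 had 131, and 0 of either set were higher in tumors by that measure. Of the 124 low genes of replicate 2, 7.26% were also lower in tumors, and of the 39 of replicate 3, 5.13% were.

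Wnt target genes were among those high in replicate 1. Axin2, a feedback inhibitor of the Wnt pathway, had 189, 42.1 and 22.2 CPM with spermidine, 19.98, 19.2 and 17.5 CPM without, and 359.6, 438 and 72.02 CPM in the 3 Smox tumors. Notum, a secreted enzyme that inactivates Wnt ligands, had 158, 0.268 and 0.216 CPM with spermidine, 3.36, 1.16 and 0.0647 CPM without and 215, 489 and 12.5 CPM in tumors. Both placed replicate 1 in the range of the tumors and above every other library of the 6. Wif1, a secreted Wnt binder, had 232, 0.746 and 2.51 CPM with spermidine and 5.56, 1.49 and 0.582 CPM without. Lgr5, the receptor that marks crypt stem cells, had 100.2, 4.59 and 4.31 CPM with spermidine and 2.58, 0.691 and 0.474 CPM without. Lgr5 was highest in replicate 1, but its other 2 spermidine libraries also lay above all 3 without it, with a log2 change of 4.85 (edgeR adjusted p = 0.178) with all 6 libraries and 1.84 (edgeR adjusted p = 0.518) without replicate 1. Ephb3, a receptor of the crypt base, had 75.2, 60.98 and 34.5 CPM with spermidine and 25.7, 25.6 and 24.96 CPM without, and its groups did not overlap either. Over the 23 Wnt target genes tested, 20 had a log2 change above 0 with all 6 libraries and 10 without replicate 1, where 50.2% and 47% of all genes did, with medians of 1.97 and -0.21. DESeq2 called 7 of them higher with all 6 libraries (1.4% of all genes), and without replicate 1 it called 0 higher and 1 lower (0.643% of all genes were lower).

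The promoter of Axin2 is shown because its level in replicate 1 is that of tumors. The RefSeq table places its start on the forward strand of GRCm38.p6, with 250 bases before and 50 after the start, at chr11:108920099-108920398. The letters CTTTGA, the core of the TCF motif of Wnt signaling, were searched on both strands and were not in this window, so nothing is in capitals:
Axin2: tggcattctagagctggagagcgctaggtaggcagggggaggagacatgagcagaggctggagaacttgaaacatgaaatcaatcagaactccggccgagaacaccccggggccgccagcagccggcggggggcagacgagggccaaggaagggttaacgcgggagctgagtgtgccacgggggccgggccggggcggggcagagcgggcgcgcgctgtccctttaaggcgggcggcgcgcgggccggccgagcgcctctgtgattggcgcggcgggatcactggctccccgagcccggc
CTTTGA occurs on either strand in 15.5% of the 20587 promoters of that table, and in 1 of the 16 Wnt target genes with an entry (6.25%).

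Markers of Paneth cells, which secrete antimicrobial peptides in the small intestine and appear in colon tumors, followed the same library. Lyz1, Paneth cell lysozyme, had 433, 0.593 and 0.361 CPM with spermidine and 9.89, 4.96 and 1.19 CPM without. The defensin Defa24 had 56.8, 0 and 0 CPM with spermidine and 1.12, 0.501 and 0.108 CPM without. Outside replicate 1, both spermidine libraries were below every library without spermidine for these genes. Mptx1, a mucosal pentraxin, differed in another way, with 13.4, 1682 and 1.51 CPM with spermidine and 5.57, 0.449 and 2.22 CPM without, so that replicate 2 alone was high.

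Replicate 3 stood apart in genes that mark position along the colon. Whether the piece itself came from another position was not tested. Osr2, a zinc finger transcription factor, had 0.474, 0.804 and 76.8 CPM with spermidine, 0.289, 0.138 and 0.0431 CPM without and a mean of 56.5 ± 8.19 CPM (SD, n = 3) in untreated Smox colon. Hoxb8, a positional homeobox gene, had 0.711, 0.2297 and 22.4 CPM with spermidine and 0.527, 0.639 and 0.323 CPM without. Car1, a carbonic anhydrase of proximal colonocytes, had 319.5, 677 and 10035 CPM with spermidine and 1084, 497 and 565 CPM without. All 3 genes were high in replicate 3 alone. The mean log2(CPM + 1) of the 11 genes of proximal position was 2.66, 3.19 and 5.33 with spermidine and 3.74, 3.68 and 3.29 without, and 5.46, 5.13 and 5.52 in untreated Smox colon. On the same scale the 12 genes of distal position stood at 2.06, 2.03 and 1.59 with spermidine and 1.76, 2.15 and 1.70 without. Hoxb13, a gene of the distal hindgut, was lowest in replicate 3, with 272, 501 and 37.9 CPM with spermidine and 152, 162 and 240.1 CPM without. Adipocyte genes were high there too, adiponectin (Adipoq) standing at 0.0921, 0.0383 and 1.59 CPM with spermidine and at 0 in all 3 libraries without.

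**Figure D1:**
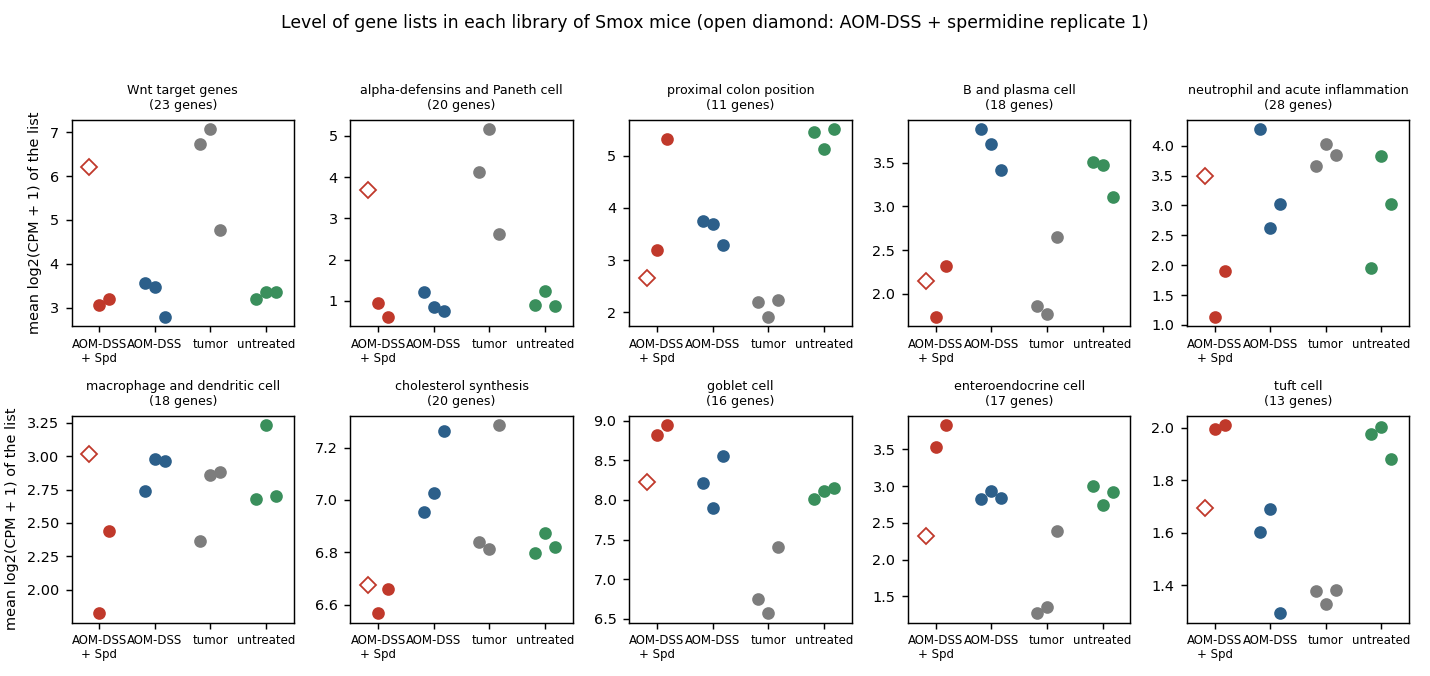
Mean log2(CPM + 1) of 10 gene lists (vertical axes) in the libraries of Smox mice given AOM-DSS and spermidine, AOM-DSS alone, in AOM tumors and untreated; each point is 1 library and the open diamond is spermidine replicate 1. For the Wnt target genes that replicate lies at 6.21, beside tumors at 6.72, 7.08 and 4.76, while for proximal position replicate 3 lies at 5.33, among the untreated libraries.

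With all 6 libraries, no gene passed an adjusted p of 0.05 by edgeR's quasi-likelihood test among 19558 tested (0% called). The smallest adjusted p was 0.0636, the unadjusted p was under 0.05 for 2676 genes (13.7%), and the number DESeq2 called on the same counts was 421, 273 higher (1.4%) and 148 lower (0.757%). Without replicate 1, edgeR called 10 of 20073 genes (0.0498%), 9 higher (0.0448%) and 1 lower (0.00498%), and DESeq2 called 274, 145 higher (0.722%) and 129 lower (0.643%), all 10 among them. Without replicate 1, 2169 genes (10.8%) had an unadjusted p under 0.05, and 1340 genes had one in both fits with the same sign. Each of the 10 had an edgeR adjusted p of 0.0425. None of the 10 remained called when any 1 of the 3 libraries without spermidine was also left out, since 0 genes were called in those fits by edgeR, with 1784 to 2024 under an unadjusted p of 0.05. DESeq2 was not rerun on those subsets. Leaving out spermidine replicate 2 as well gave 23 calls, 2 of them shared, and leaving out replicate 3 gave 4 calls, 2 of them shared; the lone spermidine library is then assumed to vary like the other groups. With all 6 libraries, leaving out 1 at a time gave 0 to 10 calls.

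Cps1 (chromosome 1, 67123026 to 67231259), which makes carbamoyl phosphate for the urea cycle and for citrulline in the intestine, had 10.8, 29.5 and 5.44 CPM with spermidine and 0.629, 0.501 and 0.862 CPM without. Every library with spermidine, replicate 1 included, lay above every library without. It rose by 4.74 on the log2 scale without replicate 1 (3.09 when spermidine replicate 2 was left out too) and its log2 change was 4.52 with it (edgeR adjusted p = 0.0886). The untreated Smox colon averaged 28.9 ± 6.09 CPM and the WT colon given AOM-DSS averaged 29.1 ± 6.68 CPM with spermidine and 10.4 ± 5.37 CPM without (SD, n = 3 each).

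Slc16a11 (chromosome 11, 70212752 to 70216417), a monocarboxylate transporter, had 5.19, 4.995 and 2.99 CPM with spermidine and 1.33, 1.05 and 0.841 CPM without, with no overlap. It rose by 1.91 on the log2 scale without replicate 1, and with all 6 libraries it was higher by 4.08-fold (log2 change 2.03, SE 0.33, edgeR adjusted p = 0.0636), the smallest adjusted p of that comparison. Naaladl1 (chromosome 19, 6105782 to 6115792), a peptidase of the intestinal brush border, had 3.75, 26.97 and 21.4 CPM with spermidine and 1.31, 3.42 and 1.77 CPM without. The groups did not overlap, replicate 1 standing just above the highest library without spermidine, and Naaladl1 rose by 3.49 on the log2 scale without replicate 1. Retsat (chromosome 6, 72598475 to 72608425), which saturates retinol, had 24.9, 80.7 and 91.7 CPM with spermidine and 32.8, 31.5 and 34.8 CPM without. Replicate 1 lay below all 3 libraries without spermidine, so the rise of 1.40 on the log2 scale rests on replicates 2 and 3.

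Mnx1 (chromosome 5, 29473034 to 29478470), a homeobox transcription factor, had 1.0002, 2.79 and 1.100 CPM with spermidine and 0.204, 0.138 and 0.302 CPM without, and rose by 3.19 on the log2 scale without replicate 1. Osr2 (chromosome 15, 35296098 to 35303305) rose by 7.89 on the same scale, with replicate 3 at 76.8 CPM and replicate 2 at 0.804 CPM. Without replicate 3 its log2 change was 2.34. Lrit3 (chromosome 3, 129787881 to 129804030), a leucine-rich repeat membrane protein of the retina, had 0.132, 0.211 and 0.667 CPM with spermidine and 0.03398, 0.0173 and 0.0216 CPM without, and rose by 4.07 on the log2 scale. The 3 libraries without spermidine held 4 counts of Lrit3 between them. The predicted gene Gm609 (chromosome 16, 45411768 to 45492969) had 2.68, 9.86 and 6.26 CPM with spermidine and 1.82, 1.28 and 1.47 CPM without, and rose by 2.42 on the log2 scale without replicate 1. Gm16011, annotated as a processed pseudogene, lies on the same strand inside Gm609 (chromosome 16, 45426845 to 45429506) and had 1.38, 2.99 and 2.78 CPM with spermidine and 0.629, 0.363 and 0.582 CPM without, with a rise of 2.47. The counting could split reads between these overlapping genes, so both calls are uncertain.

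Gda (chromosome 19, 21391307 to 21473445), guanine deaminase, which turns guanine to xanthine, was the gene that fell. It had 119.98, 44.1 and 76.1 CPM with spermidine and 175, 151 and 180.4 CPM without, and all 3 spermidine libraries lay below all 3 without. Gda fell with a log2 change of -1.48 without replicate 1 (edgeR adjusted p = 0.0425), against -1.08 with it (edgeR adjusted p = 0.178). Hprt, the purine salvage enzyme that takes up guanine and hypoxanthine, had 88.5, 82.7 and 83.9 CPM with spermidine and 118, 115 and 122 CPM without. Its groups did not overlap, with a log2 change of -0.47 (edgeR adjusted p = 0.15), which did not pass edgeR's test. DESeq2 called Hprt lower with all 6 libraries (DESeq2 adjusted p = 0.0021).

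**Figure D2:**
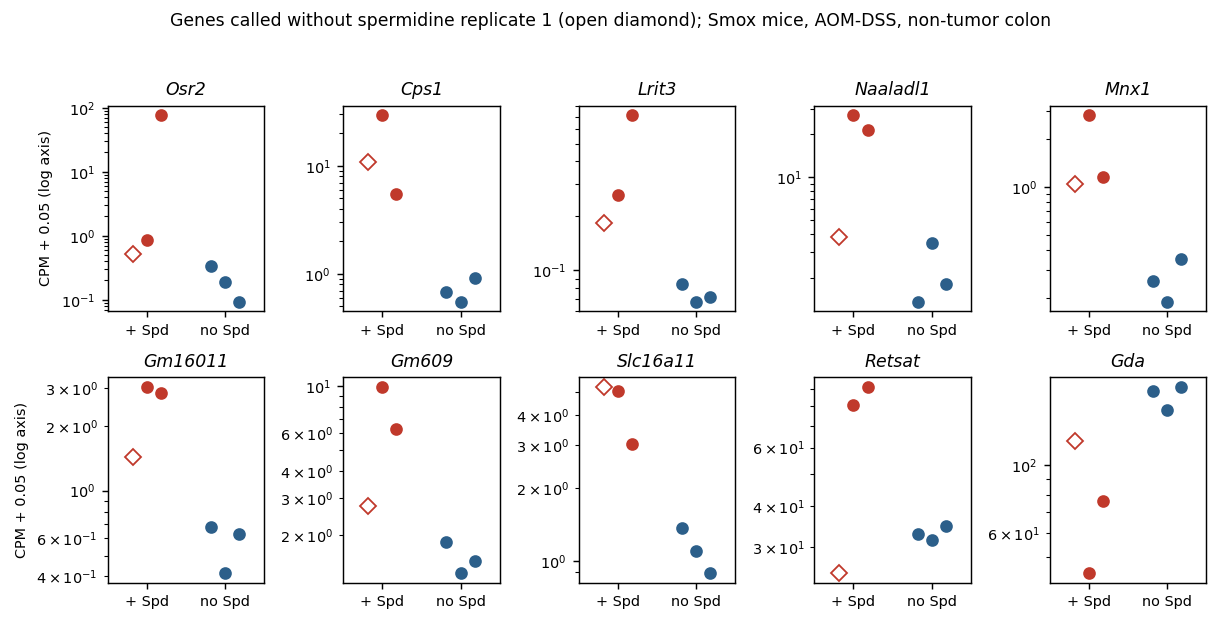
CPM + 0.05 on a log axis for the 10 genes called without spermidine replicate 1, in Smox mice given AOM-DSS with spermidine (left of each panel) and without (right); each point is 1 library and the open diamond is replicate 1, which did not enter the call. Every gene shown except Retsat separates all 3 libraries with spermidine from all 3 without, although Osr2 is high in 1 library only (76.8 CPM).

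Some genes were shifted in all 3 libraries with spermidine, replicate 1 included, without passing edgeR's test. With all 6 libraries DESeq2 called Spice1, Hunk, Per1, Coq7 and Nfkbia (DESeq2 adjusted p of 9.1e-05, 0.00026, 0.00073, 0.00092 and 0.0072). It did not call Ly6a or Nr1d2 (DESeq2 adjusted p of 0.083 and 0.12). Groups that do not overlap were found for 7.84% of all genes tested in the higher and 8.29% in the lower direction. Hunk, a serine/threonine kinase, had 63.9, 36.5 and 30.2 CPM with spermidine and 15.3, 14.6 and 8.77 CPM without, higher by 3.38-fold (edgeR adjusted p = 0.0888). Smchd1, a chromatin protein of X inactivation, had 60.2, 40.4 and 42.5 CPM with spermidine and 28.2, 24.9 and 25.2 CPM without. Spice1, a centriole protein, had 18.5, 15.4 and 11.2 CPM with spermidine and 7.85, 6.895 and 5.28 CPM without, higher by 2.25-fold (edgeR adjusted p = 0.0888). Cpn1, a secreted carboxypeptidase subunit, had 10.3, 5.15 and 45.7 CPM with spermidine and 1.53, 2.33 and 1.401 CPM without, where replicate 3 was much the highest.

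On the lower side, Coq7, an enzyme of ubiquinone synthesis, had 22.8, 30.05 and 29.8 CPM with spermidine and 41.8, 40.2 and 44.9 CPM without. Its log2 change was -0.62 (edgeR adjusted p = 0.0888). Nfkbia, the inhibitor of NF-kappaB that is itself induced by that factor, had 63.8, 67.5 and 68.4 CPM with spermidine and 88.5, 103 and 147 CPM without. The spermidine libraries were close to one another and below every library without spermidine (log2 change -0.76, edgeR adjusted p = 0.134). Chil1, a chitinase-like protein of inflamed epithelium and macrophages, had 0.592, 0.211 and 0.324 CPM with spermidine and 7.22, 10.9 and 2.89 CPM without. Tacr1, the receptor of substance P, had 2.28, 1.32 and 2.001 CPM with spermidine and 12.1, 27.96 and 5.73 CPM without. Stat3, the transcription factor downstream of IL-6 and IL-22, had 233, 131 and 152 CPM with spermidine and 226, 216 and 227 CPM without. Replicate 1 was the highest of the 6 for Stat3, and the log2 change was -0.64 without it (edgeR adjusted p = 0.105). DESeq2 called Stat3 lower without replicate 1 (DESeq2 adjusted p = 0.00016) but not with all 6 libraries (DESeq2 adjusted p = 0.15). Ly6a, known as Sca-1 and raised in regenerating colon epithelium, had 299.8, 192 and 155 CPM with spermidine and 479, 418 and 1027 CPM without, and its groups did not overlap (log2 change -1.57, edgeR adjusted p = 0.244).

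Per1, a repressor of the circadian clock, had 18.8, 16.1 and 16.7 CPM with spermidine and 36.5, 50.5 and 33.2 CPM without. The spermidine libraries stood close together and below all others, and the difference was 2.33-fold (log2 change -1.22, SE 0.25, edgeR adjusted p = 0.111) in the lower direction. The clock repressor Nr1d2 was higher without overlap, with 55.8, 70.9 and 56.7 CPM with spermidine and 42.2, 46.95 and 38.4 CPM without (log2 change 0.52, edgeR adjusted p = 0.236). Of the 16 clock genes, 9 had a log2 change above 0 and 2 separated the groups in each direction. Of all genes, 7.84% separated them in the higher and 8.29% in the lower direction. The labels give no time of day. The Per1 promoter is shown for the clock motif in it. RefSeq has 2 entries for Per1, and this one lies on the forward strand of GRCm38.p6 at chr11:69098699-69098998, its start 3732 bases from the first base of the gene in GENCODE. The capitals mark CACGTG, the E-box of the clock activators, which reads the same on both strands:
Per1: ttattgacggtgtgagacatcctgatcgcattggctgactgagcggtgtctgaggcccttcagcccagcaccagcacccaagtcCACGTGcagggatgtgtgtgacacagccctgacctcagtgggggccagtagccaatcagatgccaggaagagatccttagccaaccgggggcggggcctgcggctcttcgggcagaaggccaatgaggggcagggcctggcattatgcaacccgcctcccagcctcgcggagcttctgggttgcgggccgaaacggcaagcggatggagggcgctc
CACGTG occurs in 7.67% of the 20587 promoters and in 5 of the 14 clock genes with an entry.

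Among the genes that break down polyamines, none separated the groups. Sat1, which acetylates spermidine and spermine for export or oxidation, had 223, 223 and 212 CPM with spermidine and 219, 251 and 291 CPM without. Paox, which oxidizes the acetylated forms, had 7.67, 14.6 and 10.5 CPM with spermidine and 12.6, 14.1 and 14.2 CPM without. Over the 10 genes of catabolism and the aldehyde dehydrogenases beside it, the median log2 change was 0.09 with all 6 libraries and 0.17 without replicate 1, against 0.00231 and -0.02098 over all genes tested.

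The 19 genes of synthesis, transport and hypusination included 3 that separated the groups with all 6 libraries, 1 higher and 2 lower, where 7.84% of all genes did so in the higher and 8.29% in the lower direction. Without replicate 1, 1 was higher and 7 were lower without overlap, where 12.8% and 14.9% of all genes were. The median log2 change of the 19 was -0.05 with all 6 libraries and -0.15 without replicate 1. Azin2, an antizyme inhibitor that keeps ornithine decarboxylase active, had 1.803, 1.53 and 1.75 CPM with spermidine and 4.45, 7.17 and 3.17 CPM without. All spermidine libraries lay below all others, with a log2 change of -1.54 (edgeR adjusted p = 0.211). Sms, spermine synthase, which converts spermidine to spermine, had 18.8, 13.03 and 13.97 CPM with spermidine and 19.9, 19.4 and 25.3 CPM without (log2 change -0.50, edgeR adjusted p = 0.348). Atp13a3, a polyamine transporter, was higher, with 197, 185 and 176 CPM with spermidine and 163, 142 and 143 CPM without (log2 change 0.31, edgeR adjusted p = 0.506). Ornithine decarboxylase (Odc1), the first enzyme of the pathway, had 207, 189.9 and 264 CPM with spermidine and 270.1, 203 and 161 CPM without, and its groups overlapped. Eif5a, whose protein carries hypusine, had 546, 418 and 441 CPM with spermidine and 598, 483 and 555 CPM without. Slc22a3, an organic cation transporter, had 1.84, 0.0191 and 2.11 CPM with spermidine and 0.05097, 0.0346 and 0.0431 CPM without, where replicate 2 was the lowest of the 6 and the other spermidine libraries the highest. No member of either list passed edgeR's test in either comparison. DESeq2 called 1 of the 19 higher and 1 lower with all 6 libraries (1.4% and 0.757% of all genes). Without replicate 1 it called 1 of the 19 higher (0.722% of all genes).

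B cell and plasma cell genes were lower with spermidine, in replicate 1 as well as in the others. Of the 18 genes, 15 separated the groups in the lower direction in both comparisons, where 8.29% of all genes did so with all 6 libraries and 14.9% without replicate 1. The median log2 change was -3.21 with all 6 libraries and -2.90 without replicate 1. Igha, the heavy chain of IgA, had 231, 27.9 and 174 CPM with spermidine and 1740.4, 3108 and 1506 CPM without. The highest spermidine library was more than 6 times below the lowest library without it, and the log2 change was -3.88 (edgeR adjusted p = 0.178). Jchain, which joins IgA into dimers, had 41.2, 12.5 and 37.9 CPM with spermidine and 295, 484 and 316 CPM without. Mzb1, a chaperone of antibody-secreting cells, had 0.948, 0.268 and 1.28 CPM with spermidine and 8.02, 9.76 and 7.18 CPM without.

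No member of the list passed edgeR's test, the smallest adjusted p being 0.178 with all 6 libraries and 0.262 without replicate 1, and DESeq2 called 4 of the 18 lower with all 6 libraries and 2 without replicate 1, against 0.757% and 0.643% of all genes. Xbp1, Sdc1 and Prdm1 did not follow, and all 3 are also made by epithelium or other cells. Xbp1 had 232, 238 and 241 CPM with spermidine and 229, 170.2 and 217 CPM without, and was the one member that separated the groups in the higher direction. The WT colon given AOM-DSS averaged 123 ± 119 CPM of Igha with spermidine and 441 ± 117 CPM without, and Smox tumors averaged 203 ± 236 CPM (SD, n = 3 each). The test of the difference between genotypes gave a log2 value of -2.04 for Igha (Smox minus WT), which did not pass (edgeR unadjusted p = 0.138). In whole tissue, fewer cells of a type and less RNA per cell cannot be told apart.

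Of 20 T and NK cell genes, 7 were lower without overlap with all 6 libraries, among them Ctla4, an inhibitory receptor, with 0.382, 0.172 and 0.361 CPM with spermidine and 1.99, 0.622 and 1.66 CPM without, and Foxp3, the factor of regulatory T cells, with 0.5001, 0.0383 and 0.379 CPM with spermidine and 1.24, 1.11 and 0.582 CPM without. Among all genes, 8.29% were lower without overlap with all 6 libraries. The pan-T cell gene Cd3e overlapped, with 0.579, 0.6698 and 1.19 CPM with spermidine and 0.884, 1.21 and 2.54 CPM without. Genes of antigen presentation by MHC class II had a median log2 change of -2.54 with all 6 libraries, and 4 of the 10 separated the groups in the lower direction. That median was -0.575 when replicate 3 without spermidine was left out. The invariant chain Cd74 had 94.1, 125 and 64.4 CPM with spermidine and 105, 157 and 2071 CPM without, and replicate 3 without spermidine was more than 10 times above every other library.

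Genes of neutrophils and acute inflammation differed in how they stood with and without replicate 1. Of the 28, 2 separated the groups in the lower direction with all 6 libraries and 18 without replicate 1, where 8.29% and 14.9% of all genes did. The median log2 change was -0.99 with all 6 libraries and -2.99 without replicate 1. Single libraries moved both medians. Leaving out 1 library without spermidine (replicate 1) gave -0.16 and -1.77, leaving out spermidine replicate 3 gave -0.65 and -5.40, and leaving out spermidine replicate 2 gave -0.55 with the other 5. S100a8, a subunit of the neutrophil protein calprotectin, had 13.7, 0.134 and 2.94 CPM with spermidine and 65.9, 11.2 and 18.1 CPM without. Lcn2, lipocalin-2, an iron-sequestering protein of neutrophils and injured epithelium, had 67.4, 0.478 and 2.596 CPM with spermidine and 53.3, 14.6 and 10.1 CPM without. For S100a8 replicate 1 lay among the libraries without spermidine and for Lcn2 above them, while replicates 2 and 3 lay below them for both genes. Saa3, an acute phase protein, and Mmp8, the neutrophil collagenase, were the 2 that separated the groups with all 6. Saa3 had 17.4, 0.191 and 13.5 CPM with spermidine and 439, 20.9 and 35.2 CPM without. Tnf, the cytokine, had 7.08, 0.536 and 1.78 CPM with spermidine and 2.45, 4.61 and 11.02 CPM without, and Il1b had 25.2, 0.861 and 6.89 CPM with spermidine and 35.1, 4.93 and 18.6 CPM without. No member passed edgeR's test in either comparison, and DESeq2 called 0 of the 28 with all 6 libraries and 5 lower without replicate 1, where it called 0.643% of all genes lower.

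The complement gene C1qa, made by tissue macrophages, had 24.4, 5.95 and 13.6 CPM with spermidine and 19.98, 28.7 and 27.5 CPM without. Cd68, a lysosomal glycoprotein of macrophages, had 6.75, 1.24 and 2.47 CPM with spermidine and 4.33, 3.87 and 4.35 CPM without. Of the 18 genes, 3 separated the groups in the lower direction with all 6 libraries and 13 without replicate 1, against 8.29% and 14.9% of all genes. Stromal content varied beside these values. The vessel gene Pecam1 had 19.6, 5.61 and 17.3 CPM with spermidine and 34.3, 26.5 and 8.903 CPM without, and the 15 smooth muscle genes summed to 610.1, 2627 and 2333 CPM with spermidine and 1431, 5212 and 1144 CPM without. The part of stromal content in the immune values was not tested.

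Of 16 antimicrobial genes of the epithelium, 13 had a log2 change below 0 in both comparisons, and 3 separated the groups in the lower direction with all 6 libraries. Of all genes, 8.29% separated them in that direction. Reg3b, a bactericidal lectin, had 10.8, 0.268 and 99.6 CPM with spermidine and 1106, 109 and 1740.1 CPM without. Its groups did not overlap, but the libraries without spermidine differed among themselves by more than 10 times (log2 change -4.74, edgeR adjusted p = 0.319). Nos2, the inducible nitric oxide synthase, had 40.4, 4.69 and 22.8 CPM with spermidine and 23.04, 72.3 and 352 CPM without, and overlapped through replicate 1. Dmbt1, a mucosal scavenger protein, had 4412, 1884 and 8257 CPM with spermidine and 8641, 8955 and 12262 CPM without, with no overlap (log2 change -1.04, edgeR adjusted p = 0.3). Reg4, a relative of Reg3b made by enteroendocrine and deep crypt secretory cells, went the other way. It had 503, 754 and 522 CPM with spermidine and 205, 115 and 218 CPM without, every spermidine library being more than 2 times above every other, and it was higher by 3.301-fold (log2 change 1.72, SE 0.49, edgeR adjusted p = 0.198).

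**Figure D3:**
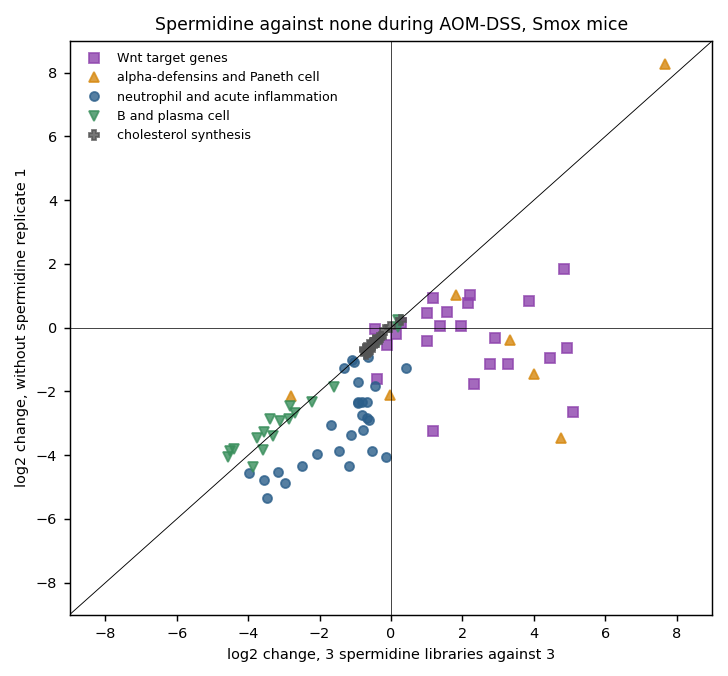
Log2 change with all 3 spermidine libraries (horizontal axis) and without spermidine replicate 1 (vertical axis) for members of 5 gene lists with at least 3 counts in the spermidine libraries other than replicate 1 and in those without spermidine; each point is 1 gene and the diagonal marks equal values. B and plasma cell genes and cholesterol synthesis genes lie near the diagonal (medians of -3.21 and -2.90, and of -0.50 and -0.50), neutrophil genes lie below it (-0.99 and -2.99), and most Wnt target genes lie to the right of it.

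Of 20 genes of cholesterol synthesis and uptake, 16 separated the groups in the lower direction in both comparisons, and the median log2 change was -0.50 in both. Among all genes, 8.29% were lower without overlap with all 6 libraries and 14.9% without replicate 1. Hmgcs1, the synthase that makes HMG-CoA in the cytosol, had 303, 305 and 322 CPM with spermidine and 458, 524 and 557 CPM without. Its log2 change was -0.73 (edgeR adjusted p = 0.246). Msmo1, a sterol demethylase, had 128, 144 and 135 CPM with spermidine and 187, 218 and 270.02 CPM without. Fdft1, squalene synthase, had 141, 108 and 123 CPM with spermidine and 166, 190.1 and 241 CPM without (log2 change -0.68, edgeR adjusted p = 0.23). All 3 separated the groups in the lower direction.

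No member passed edgeR's test in either comparison and 0 were called by DESeq2. At an unadjusted p under 0.05 by edgeR, 9 of the 20 were lower with all 6 libraries and 7 without replicate 1, where 6.15% and 5.56% of all genes were. Untreated Smox colon averaged 393 ± 6.37 CPM of Hmgcs1 (SD, n = 3). WT colon given AOM-DSS averaged 662 ± 142 CPM with spermidine and 685 ± 306 CPM without (SD, n = 3 each). The difference between genotypes had a log2 value of -0.68 for Hmgcs1 and did not pass (edgeR unadjusted p = 0.0758).

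Promoters of a pair of these genes are shown because both genes were lower in every library with spermidine. RefSeq places Hmgcs1 on the forward strand at chr13:119690101-119690400 and Msmo1 on the reverse strand at chr8:64733529-64733828 (GRCm38.p6). The letters TCACNCCAC, the sterol regulatory element bound by SREBP, were searched on both strands, and the single match is in capitals, 137 bases before the start of Hmgcs1:
Hmgcs1: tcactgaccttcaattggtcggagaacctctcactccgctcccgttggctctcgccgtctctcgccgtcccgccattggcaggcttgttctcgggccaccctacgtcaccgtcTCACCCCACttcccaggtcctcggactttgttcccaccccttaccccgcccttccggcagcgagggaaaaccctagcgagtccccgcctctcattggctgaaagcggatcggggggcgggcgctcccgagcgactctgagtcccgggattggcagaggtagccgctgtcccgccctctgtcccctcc
Msmo1: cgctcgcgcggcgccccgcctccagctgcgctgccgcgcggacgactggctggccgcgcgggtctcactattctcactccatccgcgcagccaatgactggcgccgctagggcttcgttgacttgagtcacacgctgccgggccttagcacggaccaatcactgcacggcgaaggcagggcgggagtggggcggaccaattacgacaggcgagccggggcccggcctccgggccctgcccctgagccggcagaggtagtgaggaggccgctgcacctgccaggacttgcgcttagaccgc
TCACNCCAC occurs in 1.24% of the 20587 promoters and in 1 of the 14 genes of the list that have an entry.

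Of 16 glycolytic and hypoxia-related genes, 14 had a log2 change below 0, with a median log2 change of -0.53 with all 6 libraries and -0.42 without replicate 1. Leaving out replicate 3 without spermidine gave -0.29 and -0.22, and without replicate 1 the median was -0.10 when spermidine replicate 2 was left out and -0.68 when replicate 3 was. Pgk1, phosphoglycerate kinase, had 485, 423 and 472 CPM with spermidine and 693, 709 and 836 CPM without. The groups stood well apart, with a log2 change of -0.70 (edgeR adjusted p = 0.178). Eno1, enolase, had 742, 552 and 906 CPM with spermidine and 927, 994 and 1130.5 CPM without. Car9, a carbonic anhydrase induced by low oxygen, had 60.6, 61.7 and 116 CPM with spermidine and 119, 127 and 118 CPM without, where replicate 3 came close to the libraries without spermidine. Vegfa, the vessel growth factor, overlapped, with 45.01, 41.95 and 44.5 CPM with spermidine and 37.8, 53.1 and 49.8 CPM without. With all 6 libraries 4 of the 16 separated the groups in the lower direction, against 8.29% of all genes.

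**Figure D4:**
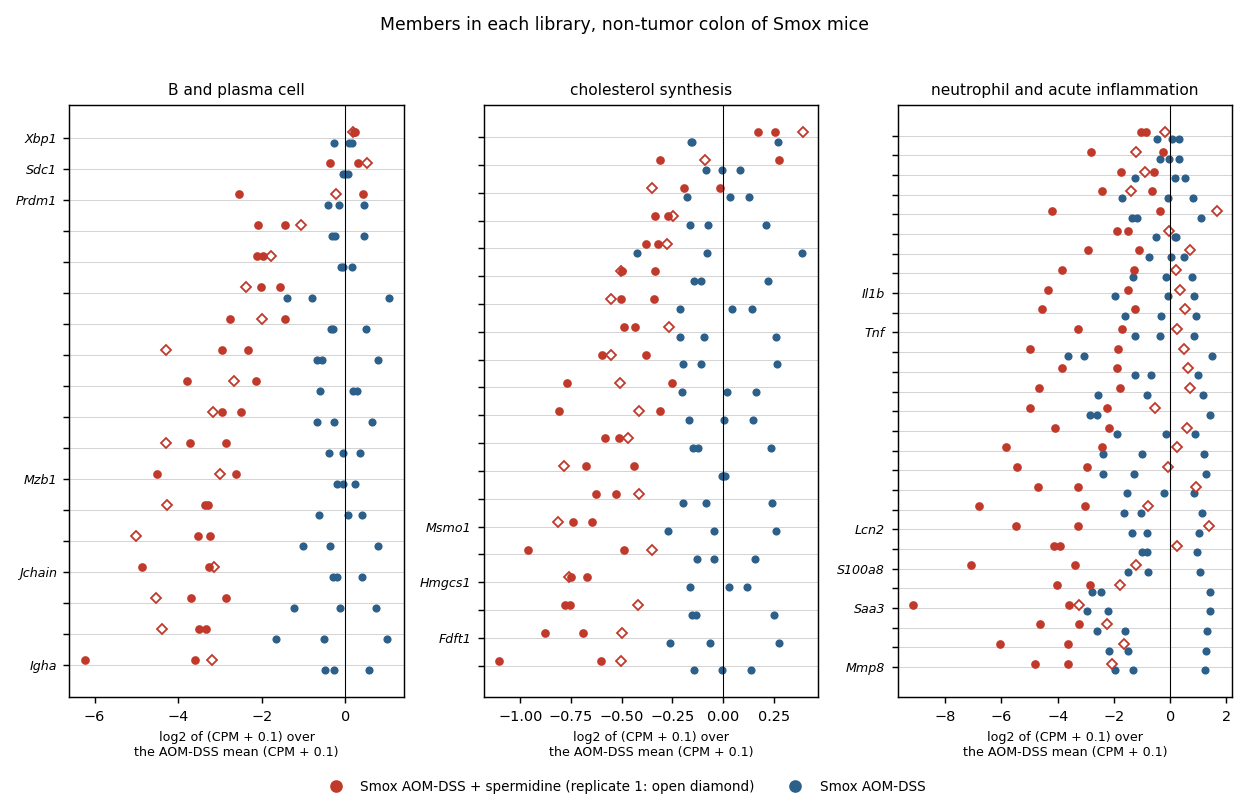
Log2 of CPM + 0.1 in each library over the mean CPM + 0.1 of the libraries without spermidine (horizontal axes), for members of 3 gene lists (names are given for those described in the text); red marks are Smox AOM-DSS with spermidine (replicate 1 as an open diamond) and blue points Smox AOM-DSS without. In the B and plasma cell list 15 of 18 genes, and in the cholesterol list 16 of 20, have all red marks left of all blue ones, whereas 2 of 28 neutrophil genes do. Among all genes tested, 8.29% were lower without overlap in this way.

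Many genes of secretory and tuft cells, but not all, were higher in replicates 2 and 3 than in the libraries without spermidine. Chga, chromogranin A of enteroendocrine granules, had 29.6, 101 and 134 CPM with spermidine and 28.9, 32.8 and 30.98 CPM without. Replicate 1 lay among the libraries without spermidine and the other 2 above them, with a log2 change of 1.94 without replicate 1 (edgeR adjusted p = 0.152). DESeq2 called Chga higher without replicate 1 (DESeq2 adjusted p = 0.0065) but not with all 6 libraries (DESeq2 adjusted p = 0.06). Tph1, which makes serotonin in enterochromaffin cells, had 6.65, 19.9 and 35.2 CPM with spermidine and 3.47, 4.58 and 4.44 CPM without, and all 3 spermidine libraries were higher (log2 change 2.30, edgeR adjusted p = 0.178). Neurod1, a factor of the lineage, had 1.16, 3.33 and 3.696 CPM with spermidine and 1.53, 1.503 and 1.42 CPM without. Somatostatin (Sst) did not follow, with 1.82, 10.3 and 13.1 CPM with spermidine and 10.04, 16.04 and 12.4 CPM without. Of the 17 enteroendocrine genes, 1 separated the groups in the higher direction with all 6 libraries and 10 did so without replicate 1, against 7.84% and 12.8% of all genes.

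Tuft cells are chemosensory cells that release IL-25. Their channel Trpm5 had 1.92, 6.97 and 6.003 CPM with spermidine and 0.731, 1.296 and 0.6898 CPM without, and their master factor Pou2f3 had 0.303, 1.61 and 1.35 CPM with spermidine and 0.187, 0.207 and 0.151 CPM without. Sh2d6, an adaptor of tuft cells, had 2.42, 2.85 and 2.29 CPM with spermidine and 0.374, 0.795 and 0.2802 CPM without. In each of these the 3 spermidine libraries lay above the 3 without, and Sh2d6 was higher by 5.18-fold (log2 change 2.37, SE 0.65, edgeR adjusted p = 0.178). Of 13 genes tested, 4 were higher without overlap and 1 (Chat, choline acetyltransferase) lower with all 6 libraries, and 7 and 2 without replicate 1. Among all genes, 7.84% were higher and 8.29% lower with all 6 libraries, and 12.8% and 14.9% without replicate 1. The tuft cell list summed to 86.31, 51.94 and 54.15 CPM with spermidine and 48.03, 61.21 and 30.91 CPM without, so its sums overlapped. DESeq2 called 2 of them higher with all 6 libraries and 4 without replicate 1, against 1.4% and 0.722% of all genes.

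Goblet cell genes included Klk1, a kallikrein, with 424, 1800.1 and 1004 CPM with spermidine and 293, 240.3 and 412 CPM without, and Clca1, a secreted mucus protein, with 985, 3115 and 2277 CPM with spermidine and 716, 1058 and 1331 CPM without. Atoh1, the factor that commits cells to the secretory fate, had 45.4, 105 and 86.4 CPM with spermidine and 47.5, 27.1 and 60.6 CPM without, a log2 change of 1.10 without replicate 1 (edgeR adjusted p = 0.427). Of the 16 genes, 3 separated the groups in the higher direction with all 6 libraries and 9 without replicate 1. The shares over all genes were 7.84% and 12.8%. The mucin Muc2 itself overlapped. The absorptive gene Slc37a2, a sugar-phosphate antiporter, had 26.8, 156 and 39.6 CPM with spermidine and 3.98, 8.36 and 11.6 CPM without (log2 change 3.22, edgeR adjusted p = 0.23). Guca2b, uroguanylin, was lower without overlap, with 10.4, 11.1 and 19.8 CPM with spermidine and 24.3, 37.4 and 32.3 CPM without.

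**Figure D5:**
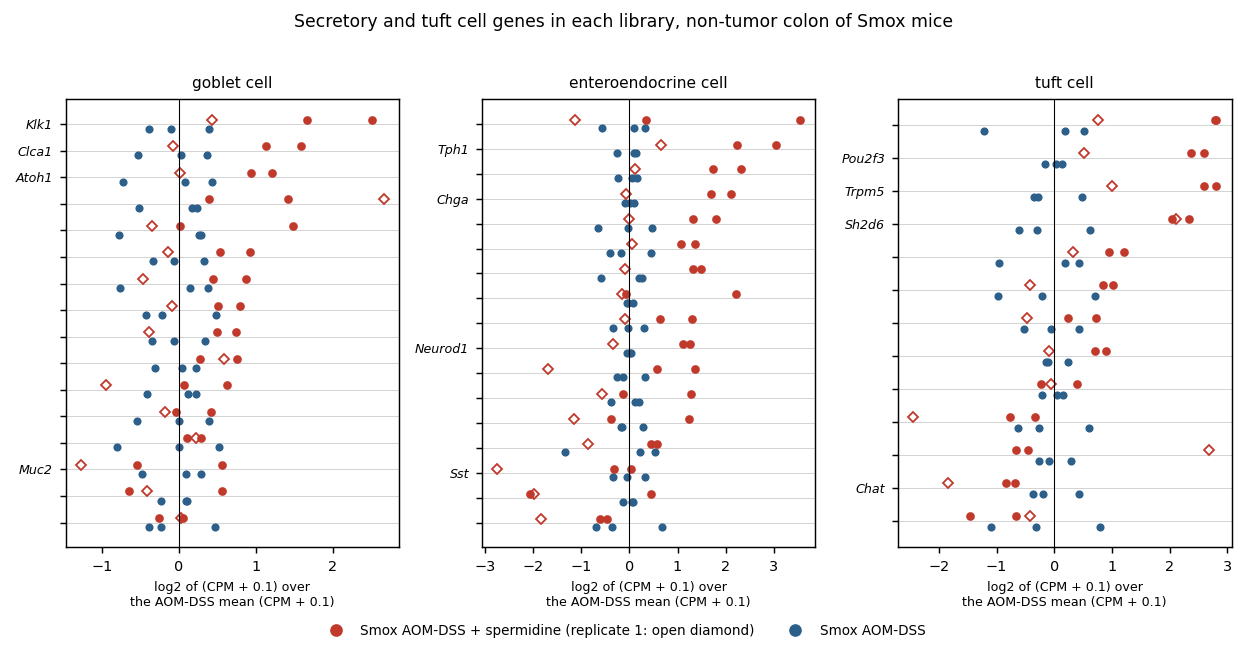
Log2 of CPM + 0.1 in each library over the mean CPM + 0.1 of the libraries without spermidine (horizontal axes), for goblet, enteroendocrine and tuft cell genes (names are given for those described in the text); red marks are Smox AOM-DSS with spermidine (replicate 1 as an open diamond) and blue points Smox AOM-DSS without. For Chga the filled red points stand at 101 and 134 CPM and the open diamond at 29.6 CPM, beside 28.9, 32.8 and 31.0 CPM without spermidine.

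Some detoxifying enzymes were high in replicate 3, the library with high genes of proximal position. Cyp2c55, a cytochrome P450 of the proximal colon, had 17.1, 115 and 1352 CPM with spermidine and 288, 79.98 and 41.5 CPM without. Replicate 3 was the highest of the 6. Sult1a1, a sulfotransferase, was high in replicates 2 and 3, with 22.6, 356 and 243 CPM with spermidine and 118, 92.8 and 84.5 CPM without. Over 22 genes of xenobiotic metabolism the median log2 change was 0.71 with all 6 libraries and 1.10 without replicate 1. Leaving out replicate 3 as well gave -0.17 and 0.20. None separated the groups in the higher direction with all 6 libraries, and 6 did without replicate 1, against 7.84% and 12.8% of all genes. The part of colon position in these values was not tested.

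The difference between this response and that of other mice was tested directly. For the spermidine effect during AOM-DSS in Smox minus that in WT mice, edgeR called 0 of 19558 genes (0%), with 820 (4.19%) under an unadjusted p of 0.05, and DESeq2 called 67, of which 58 were higher and 9 lower. Without replicate 1, where DESeq2 was not run, edgeR called 0 of 20073, with 757 (3.77%) under an unadjusted p of 0.05. For the effect with AOM-DSS minus that without AOM-DSS in Smox mice, edgeR called 0 genes with all libraries, with 2759 (14.1%) under an unadjusted p of 0.05, and DESeq2 called 308, of which 135 were higher and 173 lower. Without replicate 1, edgeR called 0, with 2186 (10.9%) under an unadjusted p of 0.05. Cps1 had a difference of 3.26 on the log2 scale between genotypes and of 4.48 between mice with and without AOM-DSS, both without replicate 1, and neither passed. Smox mice given spermidine without AOM-DSS averaged 34.5 ± 15.8 CPM of Cps1 and untreated Smox mice 28.9 ± 6.09 CPM (SD, n = 3 each).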

How the data were processed

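Per the labels' protocols, RNA from the RNeasy Mini kit went into strand-marking libraries (NEBNext Ultra II Directional). The authors deposited 1 estimated count per gene and library, held as whole numbers, and fastp, Salmon, DESeq2 and GRCm38 are named in the submitters' processing notes without versions. From the 31023 genes, edgeR 4.0.16 (R 4.3.3) kept those with enough counts (filterByExpr, minimum count 10, minimum total 15), scaled by TMM and fitted its quasi-likelihood model to all 30 libraries in 10 groups, or to 29 without spermidine replicate 1. Calls had a Benjamini-Hochberg adjusted p under 0.05. DESeq2 1.42.0, other filters, scalings, sample sets and left-out libraries were alternatives. Names missing from the table came from GENCODE vM21 by ID (10546 of 10593). Named genes were up to 10 a direction with the largest or best-supported change and, per list, the most abundant and lowest-p members; further genes were added after their values were seen. Members and the 45 lists were chosen with earlier results of these data known. The fits were also run on counts simulated from the main fit with known changes added. No simulated library stood apart from its group, so that run does not check the effect of a library such as replicate 1.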

Additional observations from a re-analysis of the deposited data

How the results depend on the processing

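With all 6 libraries, DESeq2 called 421 genes, the fit to non-tumor libraries 5 (Cps1, Slc16a11, Spice1 and Hunk higher, Per1 lower), a filter of at least 1 CPM in 3 libraries 1 (Slc16a11), and other alternatives 0. The DESeq2 calls included Igha, Lgr5, Tph1, Sh2d6, Pgk1, Reg4, Slc37a2, Azin2 and Hprt, which edgeR's main fit did not call. They did not include Hmgcs1, Fdft1, Sms, Atp13a3, Dmbt1, Reg3b or Ly6a. Without spermidine replicate 1, DESeq2 called 274 genes, no filter on low counts and a fit to the compared groups each gave 0, and RLE scaling, the CPM filter and the non-tumor fit each gave 11, sharing 10, 9 and 6 of the 10. For the difference from WT, DESeq2 called 67. For the difference from mice without AOM-DSS it called 308, and the fit to the compared groups 1, the pseudogene Rps13-ps2. Leaving out 1 library at a time gave 0 to 10 calls with all 6 libraries, 0 to 23 without replicate 1, 0 to 1 for the difference from WT and 0 to 9 for that from mice without AOM-DSS. The cause of these differences was not tested.

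Directions that turned when 1 library was left out were as follows. With all 6 libraries, the log2 change of Smox ran between -0.025 and 0.75, and list medians ran between -0.21 and 2.47 for Wnt target genes (below 0 without spermidine replicate 1), -0.17 and 1.10 for xenobiotic metabolism, -0.16 and 0.17 for polyamine catabolism and -0.95 and 1.66 for proximal position (these 3 below 0 without spermidine replicate 3), and -0.15 and 0.0051 for polyamine synthesis. Without spermidine replicate 1, Smox ran between -0.32 and 0.28 (0.0036 in the fit to non-tumor libraries), polyamine catabolism between -0.091 and 0.19, and proximal position between -0.80 and 2.56. No paired analysis was possible because the replicate numbers follow the order of the samples and pair nothing. Depth ran between 50706102 and 68035606 counts in the 6 libraries.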

Other observations

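All 15 genes of enteric neurons and glia had a log2 change below 0 with all 6 libraries, with a median of -1.35, and of -0.92 without replicate 1. Elavl4, a neuronal RNA-binding protein, had 0.684, 2.68 and 3.06 CPM with spermidine and 5.67, 10.97 and 4.12 CPM without. Elavl4 was 1 of 3 members, Elavl3 among them, that separated the groups in the lower direction with all 6 libraries, where 8.29% of all genes did. No member passed edgeR's test. DESeq2 called 1 of the 15 lower with all 6 libraries (0.757% of all genes) and 0 without replicate 1. The part of muscle wall content in these values was not tested.

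All 15 genes of the mitochondrial genome that were listed also had a log2 change below 0 with all 6 libraries, and 13 did without replicate 1. Their median was -0.42 with all 6 libraries and -0.16 without replicate 1. Their sums overlapped, at 26050, 55680 and 35130 CPM with spermidine and 43450, 59390 and 57870 CPM without. mt-Atp6, a subunit of ATP synthase, had 1671, 3166 and 1487 CPM with spermidine and 3183, 4682 and 4458 CPM without. It was the 1 listed gene that separated the groups with all 6 libraries, where 8.29% of all genes did so in the lower direction. Pdia6, a protein disulfide isomerase of the endoplasmic reticulum, was higher without overlap, with 291, 256 and 259 CPM with spermidine and 245, 160.1 and 231 CPM without.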
